A study of Mus musculus with 98 samples.

Results

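The endothelium of the mouse thymus was compared between birth and 4 weeks of age in RNA of cells sorted for CD31, the adhesion molecule PECAM1 that marks the lining of blood and lymph vessels. All bulk libraries of sorted CD31+ cells from wild-type mice were taken, which gave 12 of the 98 samples of the series, with 6 from newborn mice (P0) and 6 from mice of 4 weeks. The animals of both ages were wild-type C57BL/6 mice, for which the labels name no transgene or treatment, and the cells were gated as Ter119-, CD45-, EpCAM- and CD31+ after the lobes had been digested with Liberase and DNase. Digests of adult mice were first depleted of CD45+ cells with magnetic beads, so that age and this step cannot be told apart. The labels do not say how many animals went into a library, and p-values therefore measure the spread between these libraries, part of which may be technical. Titles hold the letters TXCK in 3 libraries of each age and DFCK in the other 3, and the sources used here do not say what these letters stand for.

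The endothelium of the thymus feeds the growing organ and is also its gate. Progenitors of T cells enter, and mature T cells leave, across venules near the border of cortex and medulla, and this traffic uses selectins, adhesion molecules and chemokines on the vessel wall. Before birth vessels sprout and divide with the organ, and many genes that drive fetal growth, several of them imprinted and read from a single parental allele, are shut down in most tissues soon after birth.

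Gene counts per library ranged from 9131362 to 14827366 at P0 and from 11094404 to 13477088 at 4 weeks, and 11520 to 14377 and 11625 to 13115 genes were detected. Levels are given as CPM (counts per 1000000 gene counts, after TMM scaling), and are not corrected for gene length, so that they compare libraries and not genes. *Cdh5*, which encodes VE-cadherin of endothelial junctions, lay at 480.0 to 2108 CPM at P0 and 1253 to 1711 CPM at 4 weeks, and *Pecam1*, the gene of the sort, at 896 to 2069 and 2135 to 3325 CPM. Of 18 pan-endothelial genes, all passed the filter and 16 were not called, where 5.09% of all genes tested were called. The median log2 fold change of the 18 was 0.08 (4 called higher and 2 lower without P0 replicate 1). *Mmrn2*, an endothelial matrix glycoprotein, rose (1.33 ± 0.24 SE) and *Cldn5*, a claudin of tight junctions, fell (-0.74 ± 0.19), a call lost when any of 10 of the 12 libraries was left out, P0 replicate 1 included (adjusted p = 0.052 without it). The library P0 replicate 1 stood apart, with Spearman correlations of 0.727 to 0.774 with the other P0 libraries, against 0.868 to 0.880 as the medians of those 5. Counts without it are given where they differ.

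Of 11333 genes that passed the filter on low counts, 577 (5.09%) were called between the ages by the quasi-likelihood test of edgeR with an adjusted p under 0.05. There were 361 genes higher at 4 weeks (3.19%) and 216 higher at P0 (1.91%), and with library totals in place of TMM factors 305 and 305. In 441 of the called genes the 6 libraries of P0 did not overlap the 6 of 4 weeks, as in 709 (6.26%) of all genes tested. No gene had an age change that differed between the label prefixes by edgeR. There, 517 of 12999 had an unadjusted p under 0.05, a share smaller than 0.05. DESeq2 called 188. Without P0 replicate 1, 785 of 11704 genes (6.71%) were called, with 479 higher at 4 weeks (4.09%) and 306 lower (2.61%). In bulk RNA, fewer cells of a type and less RNA per cell cannot be told apart.

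**Figure D1:**
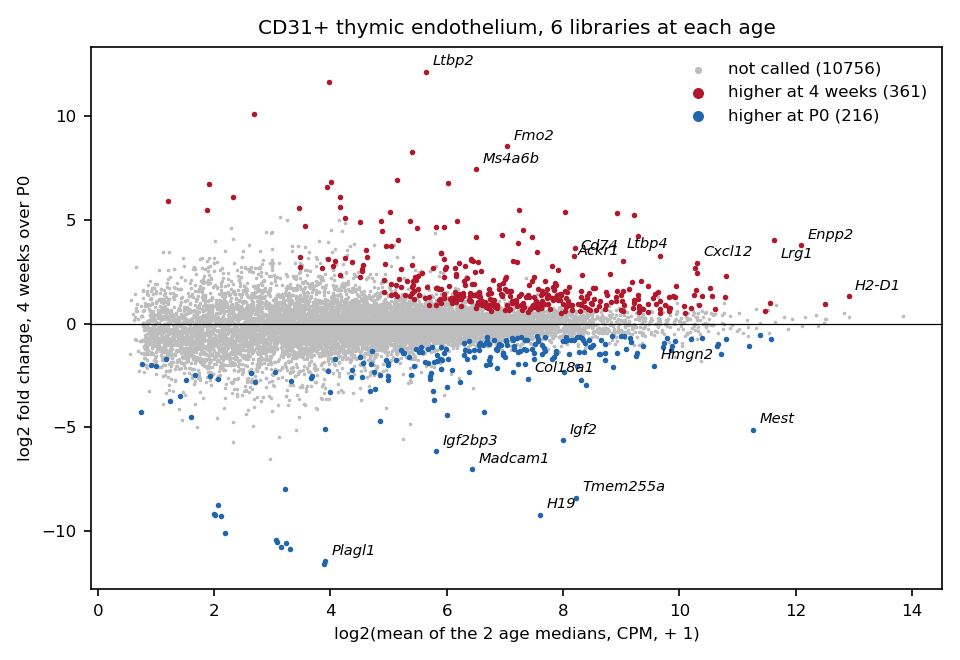
Each point is a gene tested between 6 P0 and 6 4-week CD31+ libraries, with its level on the x axis as log2 of the mean of the age medians in CPM plus 1, and its fitted log2 fold change on the y axis. The 361 genes higher at 4 weeks are red, the 216 higher at P0 blue and the others grey. Points beyond -8 or 8 have an age at or near 0 counts, where the fitted value depends on the prior count.

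Fetal growth genes were higher at P0. Of 22 imprinted and oncofetal genes, 14 could be tested. Of these, 11 were higher at P0 (1.91% of all genes tested) and none at 4 weeks (3.19%). The median log2 fold change of the 14 was -4.75 against -0.07 for all genes tested (also -4.75 with the 3 members at 0 in an age put at their bound). The same 0 and 11 were called without P0 replicate 1. *Mest*, an imprinted gene of the hydrolase fold family read from the paternal allele, lay at 3296 to 6495 CPM (median 4812) at P0 and at 106 to 184.4 CPM (median 146.2) at 4 weeks. It fell 34.2-fold, by 5.10 ± 0.22 on the log2 scale (adjusted p = 1.7e-08), and all P0 libraries were above all 4-week ones.

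*Igf2*, the fetal insulin-like growth factor, was at 308 to 966 CPM (median 502) at P0 and at 8.11 to 15.2 CPM (median 10.3) at 4 weeks, a fall of 49.3-fold (log2 -5.62 ± 0.33, adjusted p = 3.8e-07). Its neighbour *H19*, a noncoding RNA of the same imprinted domain, lay at 311 to 476 CPM (median 389) at P0, whereas 5 of the 6 4-week libraries held no read and the highest 3.98 CPM. For both genes the ages were far apart in every library. *Plagl1*, a zinc finger factor of the imprinted network, and *Peg10*, a gene derived from a retrotransposon, had reads in all P0 libraries, with medians of 28.1 and 17.8 CPM, and none in any 4-week library. Against a floor of 3 counts per library, the mean P0 levels (28.6 and 18.7 CPM) were at least 116-fold and 75.8-fold those at 4 weeks, and every such bound is taken from the mean.

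Of the RNA-binding proteins on this list *Igf2bp3* and *Igf2bp1* were called, and *Igf2bp2*, *Lin28a* and *Lin28b* did not pass the filter. *Igf2bp3*, which binds *Igf2* and other growth transcripts, was at 72.9 to 129 CPM (median 109) at P0 and 0 to 3.90 CPM (median 1.47) at 4 weeks (log2 -6.16 ± 0.85, adjusted p = 0.00063), and *Igf2bp1* was at least 72.5-fold higher at P0. The P0 libraries of both genes were all above those of 4 weeks. *Peg3* fell 21.2-fold, the growth inhibitor *Cdkn1c* 7.74-fold, the adaptor *Grb10* 4.20-fold and *Sgce* 2.41-fold. *Igf2r*, which clears IGF2, was not called (75.4 and 43.4 CPM as medians, adjusted p = 0.34), nor was *Ndn* (17.2 and 8.17 CPM, adjusted p = 0.79). *Igf2bp2*, *Hmga2*, *Dlk1*, *Meg3*, *Nnat* and *Lin28b* were among the 8 members that did not pass the filter, and no 4-week library reached 10 CPM of any of these 6.

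**Figure D2:**
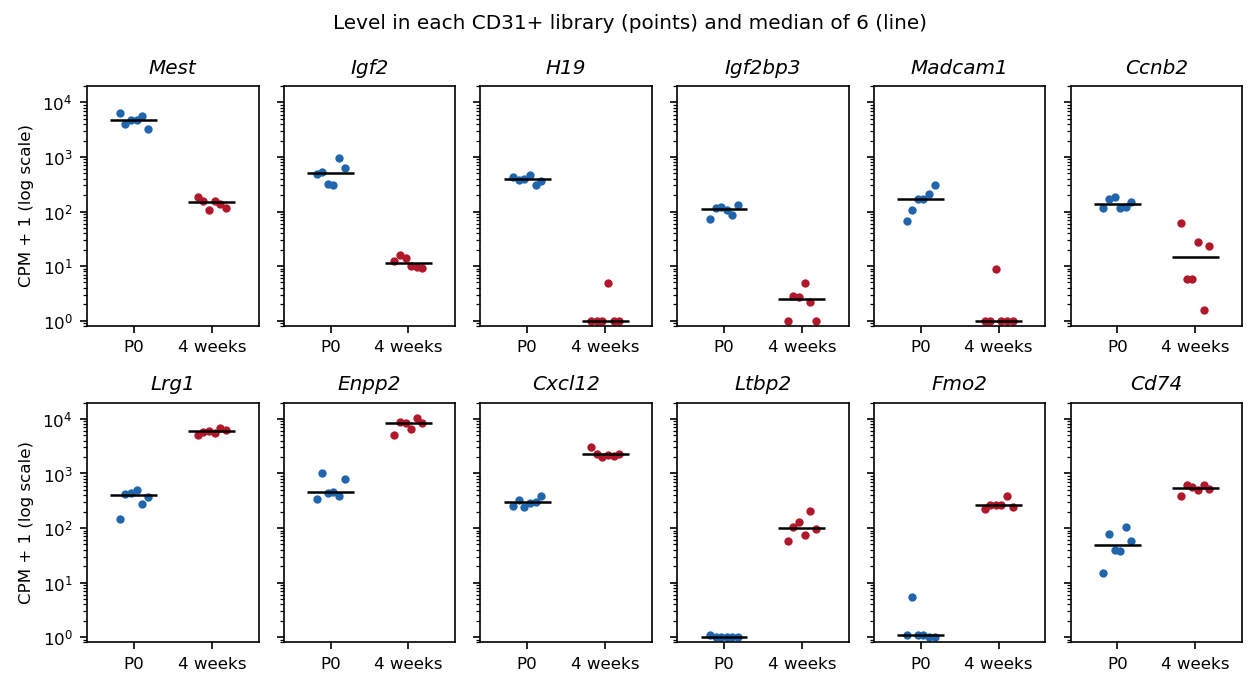
Each point is one CD31+ library (6 at P0 in blue, 6 at 4 weeks in red), the line is the median of 6, and the y axis is CPM + 1 on a log scale. *Mest*, *Igf2*, *H19*, *Igf2bp3*, *Madcam1* and *Ccnb2* lay higher in every P0 library, and *Lrg1*, *Enpp2*, *Cxcl12*, *Ltbp2*, *Fmo2* and *Cd74* in every 4-week library.

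Beside the imprinted genes, the named genes with the largest fall included *Tmem255a*, a transmembrane protein gene, which was at 286 to 905 CPM (median 595) at P0 and at 0 to 6.77 CPM at 4 weeks. *Fam107b*, *Zfp189*, *Kntc1* of the kinetochore and *Ccdc8* had P0 medians of 27.7, 16.8, 14.8 and 14.7 CPM and no read in any 4-week library, and their mean P0 levels were at least 129-fold, 63.3-fold, 61.4-fold and 56.2-fold higher. *Aspm*, a protein of spindle poles, had 1080 reads over the P0 libraries and 4 over those of 4 weeks. *Fam84a* had 631 reads at P0 and 1 at 4 weeks, and P0 replicate 4 held 31.6 CPM of it against 3.12 to 8.83 CPM in the other 5 P0 libraries, so that its place among the named genes rests on that library.

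Most genes of cell division had lower estimates at 4 weeks, but few were called in the test of the 12 libraries. The list held 42 genes of replication and mitosis, and 39 were tested. Of these, 5 were higher at P0 (1.91% of all genes tested) and none at 4 weeks (3.19%). The median log2 fold change was -1.82, with 36 of the 39 below 0. In the fit over 47 libraries described with the other populations, 15 of 42 were lower at 4 weeks in CD31+ cells (5.71% of all genes) and 0 higher (4.72%). *Ccnb2*, a mitotic cyclin, was at 114 to 186 CPM (median 133.9) at P0 and at 0.578 to 60.4 CPM (median 13.7) at 4 weeks (log2 -2.83 ± 0.75, adjusted p = 0.044). Its partner kinase *Cdk1* lay at 45.7 to 128 CPM (median 75.1) and 3.70 to 40.3 CPM (median 25.1), and the ages did not overlap for either gene. The S and G2 phase cyclin *Ccna2* fell 5.97-fold, *Birc5* (survivin) 8.84-fold and the chromatin protein *Hmgb2* 3.802-fold (log2 -1.93 ± 0.24, adjusted p = 0.00027).

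*Mki67*, the proliferation antigen, ranged from 0.380 to 44.9 CPM at P0 and from 0 to 7.85 CPM at 4 weeks and was not called (adjusted p = 0.35). *Top2a* (109.96 and 9.32 CPM as medians, adjusted p = 0.12) and the replication clamp *Pcna* (72.3 and 65.2 CPM, adjusted p = 0.71) were not called either, and for all 3 genes the ages overlapped. For *Mki67* and *Top2a* the overlap rests on P0 replicate 1 (0.380 and 18.4 CPM). The next lowest P0 libraries held 8.76 and 91.4 CPM, above the 4-week maxima of 7.85 and 56.1 CPM. The calls of *Ccnb2* and *Cdk1* were lost when any of several single libraries was left out, those of *Birc5*, *Ccna2* and *Hmgb2* were not. Leaving out single libraries changed the number called from 5 to between 3 and 11, and 4-week replicates 1 and 2 and P0 replicates 3 and 5 each moved it by more than 1.5 times, while DESeq2 called 12. Of 12 inhibitors of the cycle 10 were tested, and *Cdkn1c* and *Btg2* (-1.43 ± 0.21) were higher at P0, where 1.91% of all genes tested were. The median over the list was -0.69.

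The promoters of *Ccnb2* and *Cdk1* are shown because they hold repeated CCAAT boxes, the sequence bound by the factor NF-Y, which is a known feature of mitotic genes. The sequences are those of RefSeq (GRCm38.p6), from 250 bases before to 50 after the start of the gene, read along the strand of the gene, with each CCAAT box in capitals, or ATTGG where it lies on the opposite strand.
Ccnb2 (chr9:70421505-70421804, minus strand): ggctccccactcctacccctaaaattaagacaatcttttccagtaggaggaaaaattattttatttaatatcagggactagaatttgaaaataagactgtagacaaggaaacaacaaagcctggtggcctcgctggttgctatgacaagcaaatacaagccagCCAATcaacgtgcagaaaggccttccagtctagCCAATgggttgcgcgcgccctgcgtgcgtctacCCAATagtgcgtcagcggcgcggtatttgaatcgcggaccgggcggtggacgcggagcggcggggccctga
Cdk1 (chr10:69352863-69353162, minus strand): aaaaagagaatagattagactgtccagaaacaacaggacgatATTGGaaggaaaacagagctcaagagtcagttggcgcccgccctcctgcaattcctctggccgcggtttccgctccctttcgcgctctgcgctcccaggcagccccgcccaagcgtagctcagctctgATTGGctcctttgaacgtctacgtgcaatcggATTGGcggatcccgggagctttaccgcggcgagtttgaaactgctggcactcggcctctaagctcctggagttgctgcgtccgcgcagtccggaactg
In such windows CCAAT (either strand) was found in 26 of the 34 cell cycle promoters present in the table and in 37.92% of 27025 promoters of all genes. The letters TTTGAA, those of the cell cycle homology region, were found in 15 of the 34 and in 18.11% of all. Among the members called, 3 of 4 with a promoter held CCAAT, as did 23 of 30 of those not called, and TTTGAA was held by 3 of 4 and by 12 of 30.

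Some chromatin proteins were higher at P0 too. Of 20 genes of histones and chromatin regulators, all were tested, 4 were higher at P0 (5 without P0 replicate 1) and none at 4 weeks (median -0.66), against 1.91% and 3.19% of all genes tested. *Hmgn2*, a nucleosome-binding protein that loosens chromatin, was at 819 to 1684 CPM (median 1206) at P0 and at 197 to 365 CPM (median 307) at 4 weeks (log2 -2.02 ± 0.20, adjusted p = 4.5e-05), with no overlap. Its relative *Hmgn1* fell 1.80-fold, the histone genes *H2afx* and *H3f3b* 3.85-fold and 1.45-fold, the last a call lost without any of 8 of the 12 libraries. *Ezh2*, the methyltransferase of Polycomb, had medians of 20.1 and 4.49 CPM and was not called (adjusted p = 0.2), and *Dnmt1*, the maintenance DNA methyltransferase, had 22.7 and 30.9 CPM (adjusted p = 0.79).

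Genes of the basement membrane, the sheet of collagen IV, laminin and nidogen under the endothelium, were called in a few cases. Of 21 members 18 were tested, with 3 higher at P0 and 1 at 4 weeks (median -0.66), where 1.91% and 3.19% of all genes tested were called, and without P0 replicate 1 the numbers were 7 and 2. *Col18a1*, whose collagen releases endostatin, was at 134.5 to 369 CPM (median 285) at P0 and at 5.82 to 57.6 CPM (median 52.2) at 4 weeks, a fall of 6.25-fold (adjusted p = 0.0022). *Nid2* (nidogen-2) was at 196 to 742 CPM (median 428) and 56.8 to 116 CPM (median 90.6), and the ages did not overlap for either gene. The laminin chain *Lama4* fell 2.34-fold, and *Vwa1*, a matrix protein with a von Willebrand A domain, rose from 195 to 345 CPM to 775 to 997 CPM (log2 1.70 ± 0.15). *Col4a1*, the major collagen IV chain, was not called with all libraries (2276 and 1014 CPM as medians, adjusted p = 0.26), but was called lower (adjusted p = 0.0029) when P0 replicate 1, with the lowest P0 level of 207 CPM, was left out. None of the 14 interstitial matrix genes tested was called (median 0.12, and -0.19 without P0 replicate 1), while in the fit over 47 libraries described with the other populations 6 of 20 were lower (5.71% of all genes there) and 1 higher (4.72%) at 4 weeks.

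Genes of venules and of the thymic portal were largely higher at 4 weeks. Of 16 venous and portal genes, all tested, 9 were higher at 4 weeks (3.19% of all genes tested) and 2 at P0 (1.91%), and 9 and 1 without P0 replicate 1. The median log2 fold change was 1.26. In the fit over 47 libraries, 5 of the 16 were higher at 4 weeks in CD31+ cells (4.72% of all genes) and 1 lower (5.71%). *Lrg1*, a secreted leucine-rich glycoprotein of venules, was at 146.4 to 499 CPM (median 397) at P0 and at 4976 to 6869 CPM (median 5934) at 4 weeks, a rise of 16.6-fold (log2 4.05 ± 0.27, adjusted p = 1.1e-06). *Enpp2*, which encodes autotaxin, the enzyme that makes lysophosphatidic acid at the vessel wall, rose 13.8-fold from 344 to 1036 CPM (median 450.0) to 5089.7 to 10596 CPM (median 8341). For both genes the lowest 4-week library was well above the highest P0 library.

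*Ackr1*, the atypical chemokine receptor of venules, was at 49.8 to 154 CPM (median 124.9) at P0 and at 820.3 to 1045 CPM (median 924) at 4 weeks (log2 3.03 ± 0.24, adjusted p = 6.3e-06). *Selp*, or P-selectin, on which progenitors roll, was at 23.2 to 223 CPM (median 147) and 406 to 949 CPM (median 752), and all 4-week libraries of both genes were above all P0 ones. *Vcam1*, the ligand of the integrin VLA-4, rose 3.24-fold, *Vwf* (von Willebrand factor) 2.96-fold, *Il6st* (the signalling receptor chain gp130) 5.50-fold, the ectoenzyme *Bst1* 6.28-fold and *Ctla2a* 1.93-fold, of which the call of *Ctla2a* was lost without any of 8 of the 12 libraries. *Icam1* (166 and 203 CPM as medians, adjusted p = 0.34) and *Nr2f2*, the factor of venous identity (105 and 61.98 CPM, adjusted p = 0.22), were not called.

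The 2 members that fell were also adhesion molecules. *Madcam1*, the addressin that binds the gut-homing integrin, was at 65.5 to 307 CPM (median 171) at P0, and at 4 weeks 5 libraries held no read and the highest 7.78 CPM (log2 -7.02 ± 1.34, adjusted p = 0.0064). *Sele*, or E-selectin, had medians of 47.1 and 12.6 CPM and overlapping ages (adjusted p = 0.047, and 0.062 without P0 replicate 1), and lost its call without any of 10 of the 12 libraries. In the wider list of leukocyte adhesion and homing, 26 of 30 genes were tested, with a median of 0.52. Of these, 8 were higher at 4 weeks (3.19% of all genes tested) and 2 at P0 (1.91%), and 8 and 1 without P0 replicate 1. Among those that rose, the chemokine *Cxcl9* changed by 3.75 ± 0.78, the membrane chemokine *Cx3cl1* by 1.41 ± 0.27, *Podxl*, a sialomucin, by 0.99 ± 0.18 and the glycosyltransferase *B3gnt3* by 0.996 ± 0.16.

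*Cxcl12*, the chemokine that draws CXCR4+ progenitors, was higher in every 4-week library. It lay at 241 to 389 CPM (median 293) at P0 and at 2016 to 2998 CPM (median 2232) at 4 weeks, a rise of 7.72-fold (log2 2.95 ± 0.16, adjusted p = 1.2e-07), with no overlap. Of 18 arterial genes, all tested, 3 were higher at 4 weeks (3.19% of all genes tested), 4 without P0 replicate 1, and none at P0 (1.91%). The 3 were *Cxcl12*, the gap junction gene *Gja5* (1.52 ± 0.26) and the Notch target *Hey1* (1.22 ± 0.25), and the list median was 0.97. *Dll4* (118 and 120.1 CPM as medians) and *Sox17* (609 and 475 CPM), both of arterial identity, were not called (adjusted p = 0.99 and 0.25).

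The named genes with the largest rise were mostly near 0 at birth. *Ltbp2*, a latent TGF-beta binding protein of elastic matrix, had 1 read over the P0 libraries and lay at 56.9 to 200.3 CPM (median 98.4) at 4 weeks, a ratio of 7926 (95% counting interval 1422 to 313098). That interval treats reads pooled over the libraries of an age as the units and leaves out the spread between libraries. *Fmo2*, a flavin monooxygenase of the lung and its vessels, was at 0 to 4.46 CPM at P0 and at 220.0 to 388 CPM (median 261) at 4 weeks (log2 8.55 ± 1.07, adjusted p = 0.00027). Neither gene overlapped between the ages. *Efhd1*, a mitochondrial calcium-binding protein, and *Ggt6*, of the gamma-glutamyltransferase family, had no read at P0 and were at least 129-fold and 43.8-fold higher at 4 weeks.

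*Ms4a6b*, a tetraspan protein gene of the CD20 family, had a 4-week median of 181 CPM and a P0 maximum of 3.96 CPM. The corresponding values were 127.3 and 3.22 CPM for *Prg2*, better known from eosinophil granules, 83.1 and 1.44 CPM for the kinase *Dclk1*, and 63.2 and 5.98 CPM for the carboxylesterase *Ces2g*. *Alpl* (tissue-nonspecific alkaline phosphatase) had 33.9 and 3.13 CPM, the desmosomal cadherin *Dsg2* 33.7 and 2.60 CPM, *Nxph1* 30.2 and 1.52 CPM, and *Proser2* 8.06 and 1.495 CPM. All 8 of these genes had a P0 median under 1 CPM and were higher in every 4-week library than in any P0 library, the condition under which they were named. The calls of *Alpl*, *Ces2g*, *Dsg2* and *Proser2* were lost without 1, 3, 7 and 10 of the 12 libraries, each left out singly.

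Many genes of antigen presentation were higher at 4 weeks. Of 21 genes of MHC class I and peptide loading, all tested, 12 were higher at 4 weeks (3.19% of all genes tested) and none at P0 (1.91%). The 12 became 10 to 14 as single libraries were left out, the highest without P0 replicate 1. The median log2 fold change was 1.12. *H2-K1*, a classical class I heavy chain, was at 439 to 876 CPM (median 597) at P0 and at 1797 to 2050.4 CPM (median 1901) at 4 weeks (log2 1.61 ± 0.17, adjusted p = 6e-05). *H2-D1* was at 2976 to 4955 CPM (median 4544) and 9751 to 12163 CPM (median 10867), and neither gene overlapped. Class I genes resemble each other closely, so that the division of reads between *H2-Q6* (2.16 ± 0.26), *H2-Q7* (2.11 ± 0.39) and their relatives is uncertain.

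The peptide transporter *Tap2* rose 3.32-fold, its partner *Tap1* 1.80-fold and the loading chaperone *Tapbp* (tapasin) 2.46-fold from 645 to 1190.3 CPM to 2397 to 2659 CPM. The immunoproteasome subunits *Psmb8* and *Psmb9* rose 2.12-fold and 2.49-fold, and the calls of *Tap1* and *Psmb8* were lost without any of 7 and of 6 of the 12 libraries (highest adjusted p = 0.0597 and 0.056), while *Psmb10* was not called (0.72 ± 0.22, adjusted p = 0.079). *B2m*, the light chain of every class I molecule, had medians of 1935 and 4516 CPM, overlapping ages and an adjusted p of 0.056. *Nlrc5*, the transactivator of class I genes, was low at both ages (6.09 and 4.64 CPM, adjusted p = 0.95).

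Of 12 genes of MHC class II presentation 9 were tested (median 2.85). Of these, 3 were higher at 4 weeks (4 without P0 replicate 1) and none at P0, against 3.19% and 1.91% of all genes tested. *Cd74*, the invariant chain that guides class II molecules, was at 13.8 to 105 CPM (median 47.8) at P0 and at 388 to 604 CPM (median 535) at 4 weeks, a rise of 9.60-fold (adjusted p = 0.00017). *H2-Ab1* and *H2-Aa*, the chains of one class II molecule, rose 5.84-fold and 3.66-fold. Neither *H2-Eb1* (4.42 and 30.7 CPM as medians, adjusted p = 0.15) nor *Cd274*, which encodes PD-L1 (1.03 and 51.05 CPM, adjusted p = 0.083), was called. Of the leukocyte markers, *Ptprc* (CD45) was at most 3.84 CPM at P0 and 11.3 CPM at 4 weeks, and the macrophage genes *Adgre1* and *C1qa* were at 0 in all 12 libraries. *Cd14*, a receptor of monocytes and macrophages, was at 4.86 to 24.3 CPM (median 13.1) at P0 and at 9.96 to 38.3 CPM (median 25.6) at 4 weeks and was not called (adjusted p = 0.35), and *Lyz2* and *Csf1r* reached 2.24 and 1.16 CPM at P0 and 6.58 and 8.87 CPM at 4 weeks. The part of leukocytes in the class II values was not tested.

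Interferon-stimulated genes changed in part. Of 32 members 31 were tested, and the median was 0.39. Of these, 10 were higher at 4 weeks (11 without P0 replicate 1) and none at P0, against 3.19% and 1.91% of all genes tested. *Ifit3*, an antiviral gene of the IFIT family, was at 77.8 to 188 CPM (median 128) at P0 and at 254 to 459 CPM (median 395) at 4 weeks (log2 1.56 ± 0.22, adjusted p = 0.0008), with no overlap. The guanylate-binding proteins *Gbp2* and *Gbp4* rose 2.43-fold and 3.29-fold, and the immunity-related GTPases *Iigp1*, *Igtp* and *Ifi47* 1.83-fold, 2.38-fold and 2.15-fold. *Isg15* (-0.35 ± 0.35), *Bst2* (0.09 ± 0.33), *Irgm1* (-0.27 ± 0.23) and *Ifitm3* (0.01 ± 0.31), all commonly used as interferon readouts, were not called (adjusted p = 0.7, 0.94, 0.64 and 0.99).

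Promoters of these groups are shown for the boxes they share. In *H2-K1* and *Tapbp* the capitals mark CCAAT or its reverse complement ATTGG. In *Ifit3* they mark a pair of interferon response half-sites, GAAA and GAAA with 2 bases of any kind between them, or its reverse complement with TTTC.
H2-K1 (chr17:34000298-34000597, minus strand): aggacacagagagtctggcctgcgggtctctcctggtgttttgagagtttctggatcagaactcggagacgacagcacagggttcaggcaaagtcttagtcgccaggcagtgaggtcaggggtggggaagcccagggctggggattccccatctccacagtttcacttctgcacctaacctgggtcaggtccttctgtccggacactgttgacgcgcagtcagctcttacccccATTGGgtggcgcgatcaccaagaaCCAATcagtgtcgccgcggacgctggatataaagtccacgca
Tapbp (chr17:33919228-33919527, plus strand): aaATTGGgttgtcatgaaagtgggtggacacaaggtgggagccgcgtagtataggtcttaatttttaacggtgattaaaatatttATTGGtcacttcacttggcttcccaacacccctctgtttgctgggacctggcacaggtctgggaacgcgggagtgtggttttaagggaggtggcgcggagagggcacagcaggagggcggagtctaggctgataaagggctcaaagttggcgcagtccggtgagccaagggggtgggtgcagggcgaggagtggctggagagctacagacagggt
Ifit3 (chr19:34583279-34583578, plus strand): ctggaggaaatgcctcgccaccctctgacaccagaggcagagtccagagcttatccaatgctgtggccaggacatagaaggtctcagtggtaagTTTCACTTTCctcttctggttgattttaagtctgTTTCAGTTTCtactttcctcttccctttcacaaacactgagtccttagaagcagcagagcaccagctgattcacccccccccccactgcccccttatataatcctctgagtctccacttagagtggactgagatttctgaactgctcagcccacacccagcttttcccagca
The half-site pair was found (either strand) in 13 of the 23 interferon-stimulated promoters in the table, against 3.489% of 27025 promoters of all genes. It was present in 4 of 7 promoters of called members and in 9 of 16 of members not called. CCAAT was present in 10 of 11 promoters of called class I members and in 2 of 6 of those not called, against 37.92% of all promoters. The half-site pair was present in 2 of the 11 and in 3 of the 6. These matches describe letters in a fixed window and were not tested.

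The lists of VEGF and angiopoietin and of BMP and TGF-beta signalling held 1 and 2 calls, where 5.09% of all genes tested were called. *Angpt2*, the angiopoietin that loosens the contact of endothelium and mural cells, was at 13.2 to 86.8 CPM (median 61.6) at P0 and at 121.5 to 404 CPM (median 298) at 4 weeks (adjusted p = 0.0049), with no overlap, and was the only one of 11 tested genes of VEGF and angiopoietin signalling that was called (median 0.20). *Kdr*, the main VEGF receptor, had medians of 788 and 521 CPM (adjusted p = 0.13), and *Tek*, the angiopoietin receptor, 475 and 587 CPM (adjusted p = 0.74). Without P0 replicate 1, this list had 2 calls higher at 4 weeks and 3 higher at P0, *Kdr* among the latter (adjusted p = 0.014). In the BMP and TGF-beta list, *Ltbp4*, which holds latent TGF-beta in the matrix, rose from 55.6 to 339 CPM to 1261 to 1650.5 CPM (log2 3.25 ± 0.35, adjusted p = 8.2e-05), while the BMP target *Id2* fell 1.70-fold, and these were the calls among 17 tested (median 0.38), against 3 higher and 1 lower without P0 replicate 1. The call of *Id2* was lost without any of 11 of the 12 libraries.

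Of 37 endothelial transcription factors tested, 2 were higher at 4 weeks and 2 at P0 (median -0.47, with 31 estimates below 0), where 3.19% and 1.91% of all genes tested were called. *Gata3* was at 0.228 to 15.99 CPM (median 4.28) at P0 and at 48.4 to 133.6 CPM (median 60.0) at 4 weeks (log2 3.75 ± 0.68, adjusted p = 0.0046), and *Meox1*, a homeobox factor, rose 3.02-fold. *Lyl1* and *Lmo2*, partners in the complex that sets up blood and endothelium, fell 2.37-fold and 2.58-fold, and each lost its call without any of 8 of the 12 libraries. The number of factors lower at 4 weeks ranged from 0 to 3 when single libraries were left out, of which 4-week replicates 3 and 4 and P0 replicates 2 and 3 moved it most. Among 16 capillary genes, *Plvap*, the protein of fenestral diaphragms, and *Meox1* were higher at 4 weeks, and *Gpihbp1*, which anchors lipoprotein lipase, and *Sgk1* at P0 (median 0.08), with the call of *Plvap* lost without any of 8 of the 12 libraries. Higher and lower calls of this list numbered 3 and 2 without P0 replicate 1, 2 and 4 with library totals and 4 and 2 with RLE factors. *Gpihbp1* was at 715 to 2157 CPM (median 1275) and 332 to 685 CPM (median 579).

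Tip cell and sprouting genes had 1 call higher at 4 weeks (*Angpt2*) and 3 at P0 (*Nid2*, *Trp53i11* and the apelin receptor *Aplnr*) among 19 tested (median 0.02), and 1 and 4 without P0 replicate 1. For this list and those that follow, 3.19% of all genes tested were higher at 4 weeks and 1.91% lower, near several of these counts. Among 5 tested lymphatic genes, the neuropeptide gene *Nts* fell 6.33-fold and 4 were not called. The list median was -0.62 with 2 estimates above 0, and 2 genes fell without P0 replicate 1. *Prox1*, the master factor of lymphatic fate, did not pass the filter, but had 269 reads over the P0 libraries and none at 4 weeks. That is at least 15.4-fold by the P0 mean, but P0 replicates 1 and 3 held no read and the highest P0 library 9.10 CPM. The list of junctions had 3 of 18 higher (*Jam2*, *Plvap* and *Gja5*) and 1 lower (*Cldn5*), growth factors 3 of 25 higher (*Cxcl12*, *Angpt2* and *Pdgfd*) and 1 lower (*Igf2*), haemostasis 3 of 14 higher (*Vwf*, *Mmrn2* and *Pros1*) and lipid uptake 2 of 22 higher (*Slc27a3* and *Scarb1*) and 1 lower (*Gpihbp1*). Their medians were 0.45, 0.50, 0.33 and -0.21. The calls of *Trp53i11* and *Pros1* were lost without any of 5 and of 2 of the 12 libraries. Without P0 replicate 1 junctions had 6 higher and 0 lower, growth factors 4 and 3, and lipid uptake 3 and 2, and P0 replicate 6 also moved the count of growth factors by more than 1.5 times.

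The remaining lists held few calls, beside 3.19% of all genes tested higher at 4 weeks and 1.91% lower. Shear stress and tone had 1 of 17 higher (*Ace*) and 2 lower (*Ednrb* and *Aplnr*; median 0.11), sphingosine-1-phosphate and egress 1 of 13 higher (*Enpp2*) and 1 lower (*Lpar4*; median -0.04), scavenger receptors 1 of 14 higher (*Ehd4*; 0.21) and transporters 1 of 15 higher (*Slc3a2*; -0.09). The Notch list had *Hey1* alone of 15 (0.02), glucocorticoid-responsive genes *Sgk1* alone of 11 (lower; -0.43), and neither the 14 genes of the Wnt list (-0.14) nor the 18 of semaphorin, ephrin and Slit guidance (-0.05) had a call. Of 23 immediate-early and stress genes, *Junb*, *Ier2* and *Socs3* were higher at P0 (median -0.52), and the number varied from 1 to 5 as single libraries were left out, with 4-week replicates 3, 5 and 6 and P0 replicates 1, 2, 3, 4 and 6 each moving it by more than 1.5 times. With library totals, the medians of the pan-endothelial, capillary, sprouting and Notch lists turned slightly negative, and with RLE factors that of the egress list slightly positive. Without P0 replicate 1, medians turned to 0.24 for egress and 0.05 for transporters, and to -0.02 for shear stress, -0.07 for Notch and -0.01 for sprouting. The calls of *Slc3a2*, *Ier2* and *Junb* were lost without any of 9, 9 and 7 of the 12 libraries. Without P0 replicate 1 the calls were 3 higher and 2 lower for transporters, 2 and 3 for shear stress, 2 and 1 for egress, 2 and 0 for scavenger receptors, and 1 and 2 for glucocorticoid-responsive genes.

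**Figure D3:**
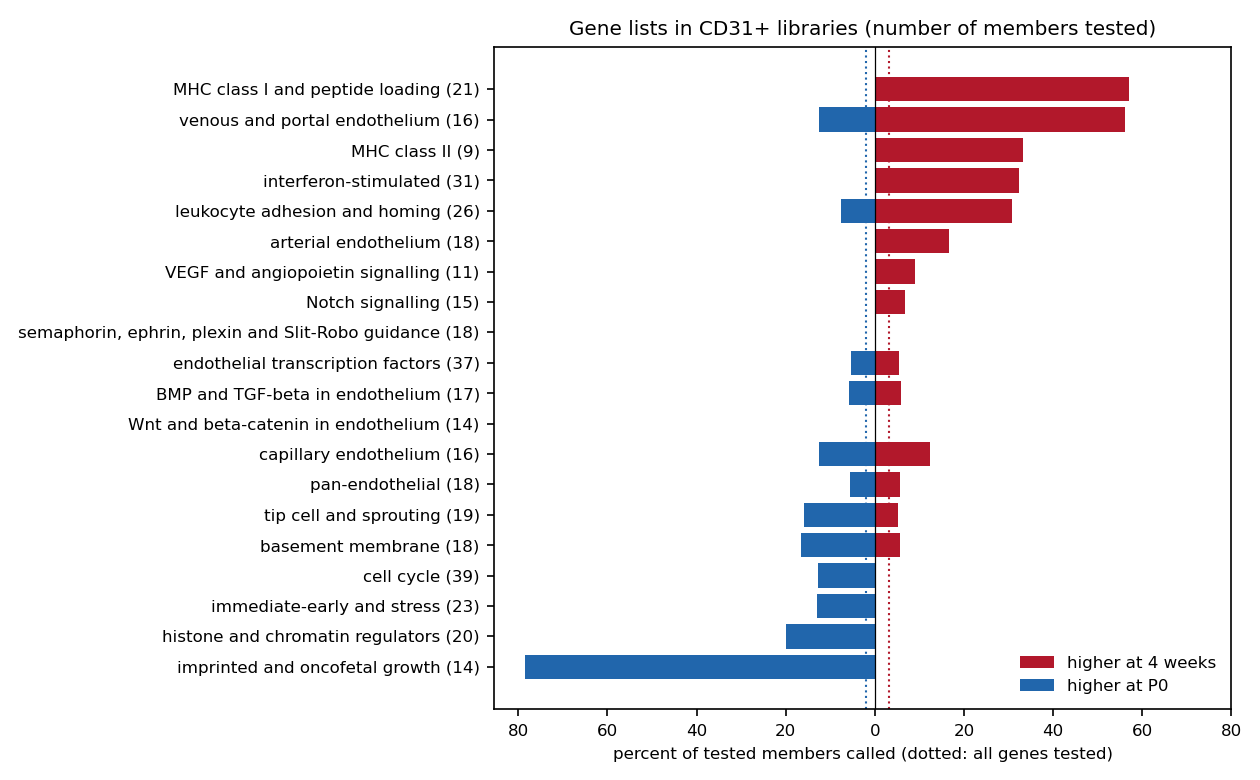
Bars give, for 20 gene lists, the percentage of tested members called higher at 4 weeks (right, red) or higher at P0 (left, blue), with the number tested in brackets. Dotted lines mark 3.19% and 1.91%, the shares of all genes tested. Imprinted and oncofetal growth genes stand at the P0 end (11 of 14) and MHC class I genes at the other (12 of 21).

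The same ages were also sampled as single cells, with 2 libraries of nonepithelial stroma at each age, in which the deposited labels name arterial (EnA), capillary (EnC) and venous or lymphatic (EnVL) endothelium. These held 283 and 291 labelled endothelial cells at P0 and 425 and 443 at 4 weeks, and no cell barcode was shared between libraries. When UMIs were summed over the endothelial cells of each library, 2958 of 11074 genes (26.7%) were called, with 1470 higher at 4 weeks (13.3%) and 1488 lower (13.4%). Of the 361 bulk genes higher at 4 weeks 354 were tested here, and 250 (70.6%) were called in the same direction and 0 in the opposite one. Of the 216 higher at P0 186 were tested, with 133 (71.5%) called in the same direction and 1 in the opposite one. EnVL made up 33.6 and 28.5% of the endothelial cells at P0 and 23.5 and 21.9% at 4 weeks, EnA 10.2 and 10.7% and then 18.6 and 16.03%, and EnC 56.2 and 60.8% and then 57.9 and 62.1%.

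All 17 imprinted and oncofetal genes tested in single cells were lower at 4 weeks. *Mest* fell in each subtype, from 1026 and 1056 CPM of UMIs to 43.6 and 69.95 in EnC, with log2 fold changes of -4.65 in EnA, -4.25 in EnC and -3.42 in EnVL (adjusted p = 0.00034, 3.3e-07 and 0.00014). *Col18a1* was at 511 and 625 CPM in EnA at P0, above EnC (93.8 and 110.03), and fell in EnA, EnC and EnVL (log2 -2.03, -3.06 and -3.88). All other cells of the libraries, by contrast, held 89.0 and 96.6 CPM at P0 and 83.8 and 88.4 at 4 weeks. Of 28 cell cycle genes 10 fell, *Hmgb2* (-0.75 ± 0.14) and *Cdk1* (-1.70 ± 0.29) among them, whereas *Ccnb2* (-0.56 ± 0.53) and *Birc5* (-0.35 ± 0.37) were not called, and cells labelled as proliferating stroma were not counted as endothelium.

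Of the venous genes that rose in bulk, *Lrg1*, *Ackr1* and *Enpp2* also rose within EnVL, a label that holds venous and lymphatic cells together. *Lrg1* went from 451 and 268 CPM to 1651 and 1248 in EnVL (log2 1.94, adjusted p = 0.00015), *Ackr1* from 291 and 246 to 822 and 473 (adjusted p = 0.0044), and *Ltbp2*, which is not on the venous list, from 15.1 and 1.10 to 109.6 and 111. *Enpp2* rose in EnA, EnC and EnVL (log2 2.94, 2.28 and 3.22), with its highest level, 1960.3 and 1887 CPM, in EnVL at 4 weeks. *Selp* was not called in single endothelial cells (-0.31 ± 0.22, adjusted p = 0.32), nor were *Vcam1* (-0.32 ± 0.13, adjusted p = 0.089), *Vwf* (0.22 ± 0.14, adjusted p = 0.28) or *Gja5* (0.23 ± 0.25, adjusted p = 0.53), although all 4 had risen in bulk. Over the venous list, 6 of 16 rose and 3 fell in single cells (median 0.09, against 0.01 over all genes), and *Icam1* fell (-1.53 ± 0.14). Of 16 capillary genes 12 rose and 3 fell in single cells (median 0.72, against 0.08 in bulk). Of 18 arterial genes 6 rose and 3 fell (0.10, against 0.97 in bulk). Of 22 lipid uptake genes 11 rose and 2 fell (0.55, against -0.21). Of 10 cell cycle inhibitors 5 rose and 2 fell (0.54, against -0.69). Of all genes tested in single cells, 13.3% rose and 13.4% fell.

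*Cxcl12* differed in its starting level between subtypes. In EnA it was at 1997 and 1741 CPM at P0 and 2238 and 2280.1 at 4 weeks (log2 0.17, adjusted p = 0.59). EnC went from 282 and 135.9 CPM to 3272 and 2887, and EnVL from 64.8 and 21.99 to 701 and 1229 (log2 3.83 and 4.38). *Fmo2* likewise rose in EnC and EnVL (log2 5.96 and 5.14) and was not called in EnA (0.62, adjusted p = 0.72). *Alpl* and *Efhd1* had their highest 4-week levels in EnA, at 133 and 98.2 and at 109 and 81.4 CPM, after 10.9 and 9.82 and 14.5 and 16.4 CPM at P0. Whether age changes differ between subtypes was not tested.

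Of the 21 class I genes 18 rose and 1 fell in single endothelial cells, all 7 class II genes tested rose, and 19 of 30 interferon-stimulated genes rose and 1 fell. *H2-K1* rose in every subtype (log2 1.62 in EnA, 1.71 in EnC and 1.36 in EnVL). *Cd74* was at 71.1 and 52.8 CPM in EnVL at P0 and at 306 and 365 at 4 weeks, and all other cells held 40.3 and 35.3 CPM at 4 weeks. Of 9 lymphatic genes tested all fell, *Prox1* (-5.36 ± 0.41) and *Nts* (-2.60 ± 0.28) included, and *Nts* lay mainly in EnVL, at 145 and 449 CPM at P0 and 11.2 and 15.7 at 4 weeks. The part of a changed mix of venous and lymphatic cells in the values of EnVL was not tested. In single cells, 17 of 20 interstitial matrix genes also fell (median -1.05), as did 7 of 12 fibroblast markers (2 rose), whereas 12 of 13 thymocyte markers, 6 of 6 epithelial markers and 4 of 6 myeloid markers rose (1 myeloid marker fell) within the cells labelled endothelial. The median UMI count per cell also differed, at 7947 to 11123 over the subtypes at P0 and 4758 to 10320.0 at 4 weeks. Cells called as doublets had been removed by the authors before deposit, and no further doublet call was made. The part of free RNA, of remaining doublets and of depth in the single-cell results was not tested.

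**Figure D4:**
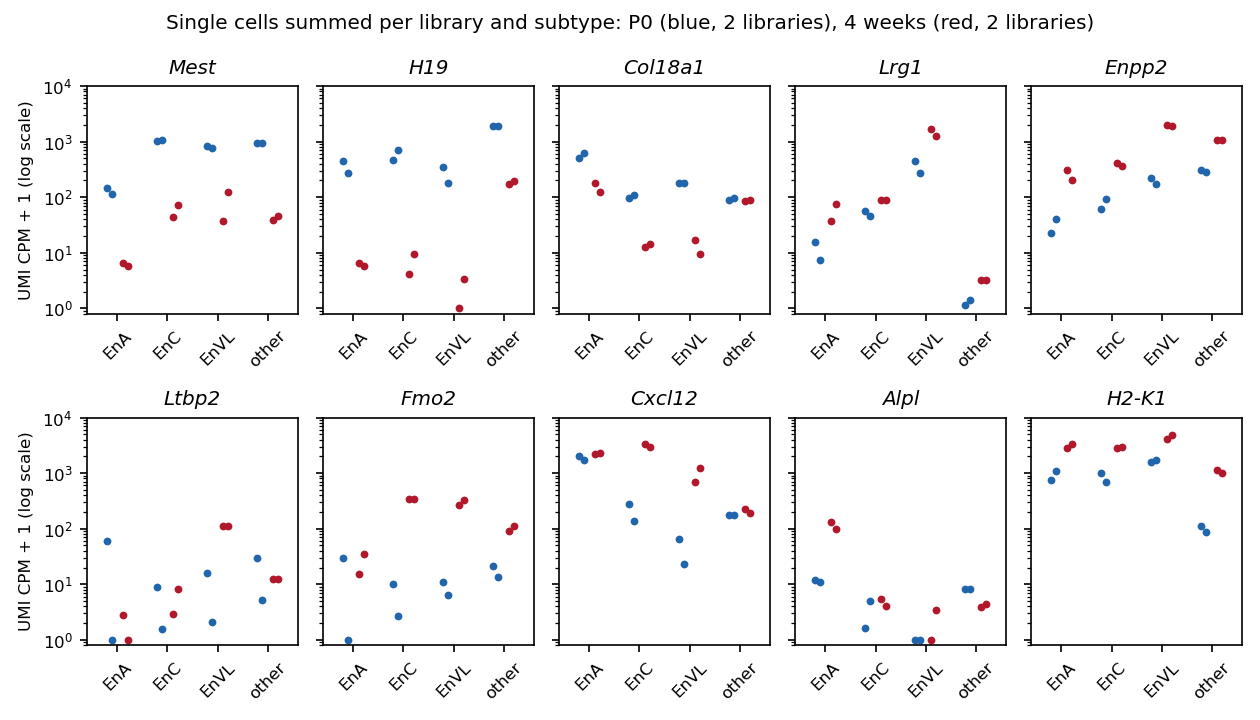
Each point is 1 single-cell library, with the UMIs of a gene summed over the cells of a subtype (EnA, EnC, EnVL, or all other cells) and given as CPM + 1 on a log scale, at P0 in blue and at 4 weeks in red. *Lrg1* and *Ltbp2* stand highest in EnVL at 4 weeks, *Alpl* in EnA, and *Cxcl12* is high in EnA at both ages but in EnC only at 4 weeks.

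The age change of CD31+ cells was set against that of 3 other nonepithelial populations sorted at the same ages, Ly51+gp38- mural cells and gp38+CD26+ and gp38+CD26- fibroblasts, in one fit over 47 libraries. The change in CD31+ cells differed from the mean change of the others for 1146 of 15704 genes (7.3%), with 424 more positive (2.7%) and 722 more negative (4.6%). Within this fit the age change itself was called for 10.4% of genes in CD31+ cells, 10.4% in Ly51+gp38-, 9.9% in gp38+CD26+ and 13.9% in gp38+CD26- cells. Fetal growth genes fell in the other populations too. In this fit 13 of 19 imprinted and oncofetal genes fell in CD31+ cells (5.71% of all genes did), 13 in Ly51+gp38- (5.53%), 14 in gp38+CD26+ (3.78%) and 17 in gp38+CD26- (5.36%). The fall of *Mest* did not differ by the test (difference 0.89 ± 0.63, adjusted p = 0.52), while that of *H19* was larger in CD31+ cells (-3.61 ± 0.85, adjusted p = 0.0049). The fall of *Igf2* was also called larger (-1.04 ± 0.32, adjusted p = 0.037), a call lost with the replicate block described at the end (adjusted p = 0.052).

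*Il6st* rose by 2.48 ± 0.14 in CD31+ cells and by 1.21, 0.22 and 0.49 in the mural cells, the CD26+ and the CD26- fibroblasts, a difference from their mean of 1.84 ± 0.16 (adjusted p = 6.9e-11). Differences of the same sign were found for *Enpp2* (2.27 ± 0.28), *Ltbp4* (2.52 ± 0.38), *Angpt2* (3.22 ± 0.65), *Gata3* (3.97 ± 0.75) and *Cxcl12* (1.48 ± 0.40), all with adjusted p under 0.05. *Col18a1* fell in CD31+ cells by 2.62 ± 0.48 and changed by 1.46, -0.91 and 0.59 in the others (difference -2.999 ± 0.55, adjusted p = 0.00028). Of 21 class I genes, 11 rose in CD31+ cells (4.72% of all genes did), 12 in Ly51+gp38- (4.9%), 15 in gp38+CD26+ (6.12%) and 18 in gp38+CD26- (8.57%). The difference was more negative in CD31+ cells for 6 of them and more positive for none. *H2-K1* changed by 1.63 against 2.99, 4.48 and 4.90 (difference -2.49 ± 0.25, adjusted p = 1.6e-09) and *H2-D1* showed a difference of -2.35 ± 0.39. None of the 11 class II genes differed by this test.

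**Figure D5:**
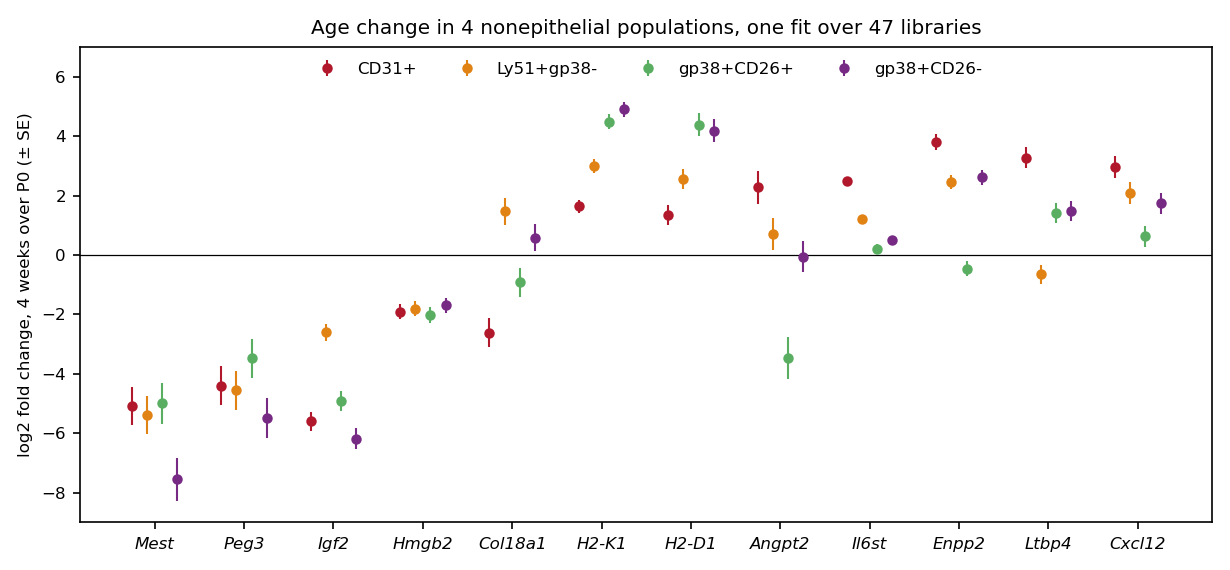
Points are fitted log2 fold changes from P0 to 4 weeks, with bars of 1 SE, in CD31+ cells and 3 other sorted populations. *Mest*, *Peg3* and *Hmgb2* fell in all 4, *Col18a1* changed by -2.62 in CD31+ cells, and *H2-K1* by 1.63 in CD31+ cells against 2.99 to 4.90 in the others.

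By the size of the difference, *Oas2*, *Ltbp2*, *Nxph1*, *Slc4a11*, *Efhd1* and *Casq2* were the most positive in CD31+ cells and *Fam107b*, *Aplnr*, *Tent5b*, *Ccdc8*, *Ncs1* and *Fam84a* the most negative. Most of these rest on libraries at or near 0 counts, where the fitted value depends on the prior count. *Oas2*, an enzyme that senses double-stranded RNA, had no read in any P0 CD31+ library and lay at 0 to 35.2 CPM (median 20.9) at 4 weeks. *Aplnr* was at 1570.5 to 4707 CPM (median 3146) at P0 and at 1189 to 1726 CPM (median 1546) at 4 weeks in CD31+ cells. The means of the other populations were 0, 0 and 0 CPM at P0 and 10.996, 2.07 and 9.67 CPM at 4 weeks, in the same order. These means are over library totals, without TMM scaling.

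Markers of other cells were low but did not all stay level. Summed CPM of 16 thymocyte markers was 13.9 to 49.5 at P0 and 0.0776 to 49.2 at 4 weeks, of 13 myeloid markers 11.7 to 26.4 and 21.1 to 41.996, of 10 platelet markers 4.01 to 40.4 and 0 to 24.4, of 13 epithelial markers 1.34 to 53.8 and 16.52 to 48.2, and of 13 fibroblast markers 14.1 to 169 and 14.2 to 97.3. None of the tested members of these lists (3, 2, 2, 4 and 6) was called. In the fit over 47 libraries, 4 of 13 fibroblast markers were lower in CD31+ cells at 4 weeks (5.71% of all genes) and none higher (median -1.18), and the difference from the other populations was more negative for 3 (4.6% of all genes), while none of the tested thymocyte, myeloid, platelet or epithelial markers (15, 7, 6 and 11) was called. *Rag1*, *Itgam*, *S100a8*, *Krt5*, *Cdh1* and *Aire* were at 0 in all 12 libraries. No mesothelial or neural crest marker passed the filter, and *Wt1*, *Upk3b* and *Sox10* were at 0 throughout.

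Erythroid markers and the mural marker *Rgs5* rose. All 5 tested of 11 erythroid genes were higher at 4 weeks, where 3.19% of all genes tested were. The summed level of the list was 7.69 to 316 CPM at P0 and 295 to 8281 CPM at 4 weeks. *Hba-a1* and *Hba-a2*, and *Hbb-bs* and *Hbb-bt*, are near-identical copies whose reads cannot be divided with certainty. *Klf1* and *Hemgn* were at 0 in all 12 libraries. Of the 5, 3 were still called without 4-week replicate 4 or 6 or P0 replicate 2 or 3, and *Hbb-bt* lost its call without any of 6 of the 12 libraries. In the fit over 47 libraries 8 erythroid genes were tested, and 7 were higher at 4 weeks in CD31+ cells (4.72% of all genes). In the mural cells, the CD26+ and the CD26- fibroblasts 5, 7 and 7 were higher. The median change was 5.44 in CD31+ cells and 7.45, 10.02 and 12.07 in the others. The difference was more negative in CD31+ cells for 4 (4.6% of all genes) and more positive for none. In the single cells, *Hba-a1* was not called and was low in 1 of the P0 libraries, with 46.3 and 6078 CPM in EnC at P0 and 6823 and 9414 at 4 weeks. Of 12 mural markers 6 were tested, 1 was higher at 4 weeks (3.19% of all genes tested) and none at P0 (1.91%). Of the estimates 5 were above 0 (median 2.04). DESeq2 called 3 higher and 1 lower, and over all 11333 genes 666 and 468. Their summed level was 78.6 to 205 CPM at P0 and 706 to 2015.5 CPM at 4 weeks. In the fit over 47 libraries all 12 were tested, 8 were higher at 4 weeks (4.72% of all genes) and 1 lower (5.71%) in CD31+ cells, and the difference from the other populations was more positive for 6 (2.7%) and more negative for none (4.6%). In single endothelial cells 3 of 11 rose (13.3% of all genes tested there) and none fell (13.4%). *Rgs5* was at 23.3 to 133 CPM (median 56.1) at P0 and 571 to 1854 CPM (median 1193) at 4 weeks. In Ly51+gp38- cells its means were 32174 and 93920.3 CPM over library totals, without TMM scaling. *Pdgfrb* (0.0959 and 8.93 CPM as medians) and *Acta2* (1.49 and 35.7 CPM) were not called (adjusted p = 0.96 and 0.13). The Y-linked *Ddx3y* exceeded 10 CPM in 1 of the 6 P0 libraries and in 5 of the 6 4-week ones, and *Xist* in 4 and 0, and none of the 3 sex-linked genes tested was called with all libraries. Without P0 replicate 5 all 3, which are Y-linked, were higher at 4 weeks and *Xist* lower. The part of red cells, mural cells, fibroblasts, sex and bead depletion in the results above was not tested. Of 13 mitochondrially encoded genes 12 were tested and *mt-Atp6* fell (-1.23 ± 0.31, a call lost without any of 8 of the 12 libraries), with summed levels of 3829.8 to 6988 CPM at P0 and 3452 to 5313 CPM at 4 weeks.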

How the data were processed

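Ultra-low-input RNA-seq was done on sorted thymic cells, and whole-number counts per gene were deposited by the authors for each library, without normalization. Per the labels, STAR 2.5.3a, HTSeq, Cell Ranger 3.1.0, mm10 and GRCh38 are named in the submitters' processing notes without a role. The strand setting is not given in the sources used here. Single cells were deposited by the authors as UMI counts with cell labels. Cells that DoubletFinder called as doublets, and clusters with *Ptprc* or of epithelial cells, had been removed by the authors.

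Genes with an Ensembl identifier were kept (39179, of which 37607 matched a symbol, leaving 0.223% of CD31+ counts without one), and entries of no gene, 10.4 to 13.5% of each CD31+ library, were left out. Another 36 columns of the bulk table, from other groups, were not used. Main tests were the quasi-likelihood tests of edgeR 4.0.16 in R 4.3.3 (filterByExpr, TMM, Benjamini-Hochberg over all genes tested, threshold 0.05). DESeq2 1.42.0, limma 3.58.1, other scalings and filters and left-out libraries were alternatives. Summaries used Python 3.11.15, numpy 2.4.6, pandas 2.3.3, scipy 1.17.1 and matplotlib 3.10.9. The 47 libraries of the population comparison leave out 1 shallow 4-week gp38+CD26+ library. Scripts were tested on simulated counts. A library of median depth at P0 holds 11219561.5 gene counts. The floor used for genes at 0 was 3 counts per library as CPM after TMM scaling, averaged over the libraries of an age. It was 0.258 CPM at P0 and 0.247 CPM at 4 weeks.

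Named genes were, for each direction, the 12 with the largest fold change among called genes with a mean of at least 10 CPM in the higher age, no overlap of the ages, an informative symbol and no place on a marker list. Named too were members of the 32 gene lists and 11 marker lists, by smallest adjusted p and with members that did not pass, and the 6 largest differences from other populations in each direction. The groups and lists were chosen with earlier results of these data known. Promoters came from a RefSeq table.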

Additional observations from a re-analysis of the deposited data

Results flagged for a closer look

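Single libraries far from the other 5 of their age were looked for in 344 sets of 6 values (a gap over the critical value of Dixon's test), and 32 stood out. The chance rate of about 1 in 20 assumes normally distributed values. Some sets, such as *Madcam1* at 4 weeks, have a median of 0, so that the 32 cannot be read against that rate. P0 replicate 1 had 11520 genes detected, the fewest at P0, and stood out for 7 genes, with *Ccna2* at 125.03, *H2-D1* at 2976, *Hbb-bt* at 24.489, *Pdgfd* at 213.25, *Pdgfrb* at 32.246, *Pecam1* at 895.9 and *Plvap* at 1447 CPM. In P0 replicate 2, *Cd274* at 15.056, *Cxcl9* at 11.733 and *Gata3* at 15.991 CPM stood apart. In P0 replicate 4, *Fam84a* at 31.646 and *Slc27a3* at 22.976 CPM stood apart. In P0 replicate 5, *Ddx3y* at 192.17, *H2-Ab1* at 66.412 and *Hey1* at 76.948 CPM stood apart. In P0 replicate 6, *Ltbp4* at 338.54 and *Nnat* at 21.035 CPM stood apart.

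In 4 weeks replicate 1, *Cdkn1c* at 174.1, *Col18a1* at 5.8214, *Cxcl12* at 2998, *H2-Ab1* at 76.764 and *Lpar4* at 116.74 CPM stood apart. In 4 weeks replicate 2, *Ptprc* at 11.279 and *Csf1r* at 8.8679 CPM stood apart. In 4 weeks replicate 3, *Madcam1* at 7.7771 CPM stood apart. In 4 weeks replicate 5, *Ace* at 548.19, *Ednrb* at 208.45, *Fmo2* at 387.82, *Ndn* at 30.239 and *Psmb8* at 485.81 CPM stood apart. In 4 weeks replicate 6, *Btg2* at 392.14 CPM stood apart.

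The age change in CD31+ cells differed from the mean of the 3 other populations, by the edgeR test of that difference, by the following log2 amounts. The largest positive differences were *Oas2* 14.92, *Ltbp2* 10.42, *Nxph1* 10.26, *Slc4a11* 9.2, *Efhd1* 8.91 and *Casq2* 8.59, and the largest negative ones *Fam107b* -10.55, *Aplnr* -10.36, *Tent5b* -10.26, *Ccdc8* -9.82, *Ncs1* -9.48 and *Fam84a* -9.37. These fitted values depend on the prior count where an age or population is at 0.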

How the results depend on the processing

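No change of direction was found among 2622 recomputed values of named and called genes, 436 of which lost the call, mostly in the smaller sets of a single label prefix and in the test against a log2 fold change of 1. These genes were chosen as called in the same libraries, so that a reversal was unlikely in advance. When 1 library was left out, calls were lost for *Alpl*, *Ccnb2*, *Cdk1*, *Ces2g*, *Cldn5*, *Ctla2a*, *Dsg2*, *H3f3b*, *Hbb-bt*, *Id2*, *Ier2*, *Junb*, *Lmo2*, *Lyl1*, *Plvap*, *Pros1*, *Proser2*, *Psmb8*, *Sele*, *Slc3a2*, *Tap1*, *Trp53i11* and *mt-Atp6*, and 466 to 785 genes were called in all, 276 to 479 of them higher at 4 weeks and 159 to 306 higher at P0. DESeq2 called 1134 genes (666 higher and 468 lower at 4 weeks), DFCK libraries alone 88 (64 and 24), TXCK libraries alone 59 (46 and 13), and the test against a log2 fold change of 1 116 (70 and 46). With limma voom 341 genes were higher at P0. The share of calls higher at 4 weeks was 62.6%, and 50% with library totals, 57.8% with upper-quartile and 67.7% with RLE factors.

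Differences from the other populations numbered 1731 with DESeq2, 319 against Ly51+gp38- alone, 613 against gp38+CD26+ alone, and 945 to 1228 without single CD31+ libraries. The interaction of age and label prefix gave 188 calls with DESeq2 and 0 in edgeR without any single library. In single endothelial cells 1646 genes were called by DESeq2, 551 in EnA alone, 1276 in EnVL alone and 1903 to 2698 without single libraries, the lowest without 4-week replicate 1. Title numbers run in fixed steps across the 4 populations of an age, which may mark libraries of the same sort, but the labels do not say so. With these sets as a replicate block, an alternative chosen after seeing the data, 705 differences were called, 658 of them also without the block, and those of *Igf2* (adjusted p = 0.052) and *Slc4a11* (0.11) were lost among those named in the comparison of populations. Deviations of CD31+ libraries from their group correlated by -0.0599 to 0.0744 with libraries of the same number. Their medians were 0.01886 at 4 weeks and 0.01965 at P0. With libraries of other numbers the correlations were -0.0669 to 0.0634 (medians -0.00319 and -0.00477). No correlation passed 0.1, but the medians were higher for the same number at both ages. Whether the numbers mark pairs cannot be settled from these values, and the main fit does not treat them as pairs. The sets do not link the ages, and the age comparison within CD31+ cells has no such fit. Low counts limit genes near 0 in an age.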
